A study of Mus musculus with 12 samples.

Results

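The 55 genes described here drive or mark cell division, and they were read in whole spleens of busulfan-treated mice with and without fecal microbiota transplantation (FMT). They were chosen by symbol for their known roles, and the symbols fall into 28 S-phase genes, which act in DNA replication, and 27 mitotic genes, which act in chromosome segregation and cytokinesis. They are 55 of the 18221 genes in the tables, and all 55 passed the filter on low values and belong to the 12671 genes tested. The spleens came from male ICR mice that entered the study at 3 weeks of age and were collected at 8 weeks, with 3 libraries in each of 4 groups. Con-sa mice received saline by mouth for 2 weeks and no busulfan, an alkylating drug used before stem cell transplantation. B-sa mice received a single injection of busulfan at 40 mg/kg and saline. B+Con-FMT and B+A10-FMT mice received the same busulfan injection and a daily oral dose of small intestinal content for 2 weeks. The content was taken from control donors for B+Con-FMT and, for B+A10-FMT, from donors dosed with alginate oligosaccharide (AOS) at 10 mg/kg. The content of the donors of a group was pooled, so that the mice of an FMT group share 1 donor preparation, and a group that received FMT without busulfan was not analysed here.

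A dividing cell first licenses its replication origins by loading the MCM helicase, then fires them with CDC45 and the GINS complex, and copies its DNA with polymerases held on the template by the PCNA clamp. After replication, cyclin-dependent kinase 1 with its A and B cyclins, together with the Polo and Aurora kinases, drives entry into mitosis, and the anaphase-promoting complex with CDC20 and UBE2C ends it. Factors of the E2F family act mainly on the S-phase genes, and MYBL2 and FOXM1 mainly on the mitotic genes. In the mouse spleen the dividing cells include erythroid and granulocyte precursors of the red pulp, since the organ keeps forming blood cells after birth, and B cells in germinal centers.

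The bases before the start sites of the members were searched for the motifs known from cell cycle promoters. The search covered both strands of the 250 bases upstream of each RefSeq start (GRCm38.p6). The members were chosen as known cell cycle genes, so the motifs do not bear on their changes in these mice. A RefSeq promoter was matched for 45 of the 55 genes, and Ccne2, Gmnn, Mcm4, Gins1, Gins2, Ccna2, Foxm1, Aurkb, Tpx2 and Stmn1 were not matched. The E2F motif (TTTCGCGC, TTTGGCGC, TTTCCCGC or TTTGCCGC) was present in 6 of the 23 S-phase genes (26.1%), in 1 of the 22 mitotic genes (4.55%) and in 2.16% of 27025 genes with a listed promoter. The cell cycle homology region (CHR; TTTGAA or TTCGAA) was present in 26.1% of the S-phase genes, 40.9% of the mitotic genes and 19.6% of all genes. The CCAAT box (CCAAT) was present in 65.2%, 77.3% and 37.5%, and a CHR together with a CCAAT box in 21.7%, 40.9% and 7.93%, in the same order. A gene with several listed starts was counted once when any of them held the motif. The letters are a description of these windows, and binding was not measured. For 21 of the 45 genes a listed start lay inside the gene's span in the RefSeq gene table, and for 9 the whole window did (Cdc6 among them), so that these windows are bases before an internal start. Of the 6 S-phase genes with an E2F match, Cdc6 and Uhrf1 held it in a window wholly inside the span. For Mcm7 and Pola1, most of the window with the match lay inside the span. The 150 bases before the listed start are printed 5′ to 3′ in lower case for 2 S-phase genes with an E2F match and for 3 mitotic genes with the other motifs, with every match to the 3 motifs in capitals. Bases inside the gene's span were left out, which shortened the window to 109 bases for Mcm5, 140 for Top2a and 79 for Mki67. None of the printed windows overlaps an annotated exon of GENCODE M21.
Mcm6, chr1:128359706-128359855, minus strand: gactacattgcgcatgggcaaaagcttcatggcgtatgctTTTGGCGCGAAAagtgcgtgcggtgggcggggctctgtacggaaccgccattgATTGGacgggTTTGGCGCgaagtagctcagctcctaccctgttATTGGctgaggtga
Mcm5, chr8:75109359-75109467, plus strand: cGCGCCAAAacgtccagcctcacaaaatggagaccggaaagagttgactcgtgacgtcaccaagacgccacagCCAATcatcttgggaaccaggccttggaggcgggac
Top2a, chr11:99024200-99024339, minus strand: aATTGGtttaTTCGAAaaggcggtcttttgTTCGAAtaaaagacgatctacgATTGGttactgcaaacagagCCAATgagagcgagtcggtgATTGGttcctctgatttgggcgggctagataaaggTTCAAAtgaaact
Ccnb2, chr9:70421555-70421704, minus strand: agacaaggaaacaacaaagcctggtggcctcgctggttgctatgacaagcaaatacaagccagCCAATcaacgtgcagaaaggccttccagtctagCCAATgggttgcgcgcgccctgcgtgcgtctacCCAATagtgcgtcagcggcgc
Mki67, chr7:135716451-135716529, minus strand: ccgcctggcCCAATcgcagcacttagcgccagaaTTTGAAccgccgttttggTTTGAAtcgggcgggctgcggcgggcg
In Mcm6, which encodes a subunit of the MCM helicase, a pair of overlapping E2F matches began 110 and 106 bases before the listed start and a further one 47 bases before it. Mcm5 held an E2F match 149 bases before its listed start. Top2a held 3 CHR matches among 4 CCAAT boxes in the printed bases, Mki67 held 2 CHR matches, and Ccnb2 held 3 CCAAT boxes without a CHR match in these 150 bases.

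The depth estimated from the steps of the lowest values was 14700000 to 15500000 reads per library, and the 10 globin genes took 23.3% to 32.4% of the summed RPKM (reads scaled to transcript length and library size). The 8 spleen identity markers were present in every library. The labels do not say that each library is a separate animal. A library is called a mouse here, and p-values measure only the spread between these libraries, which may be technical.

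Busulfan alone went with higher levels of the whole gene group. In B-sa mice, all 55 members had a higher mean than in Con-sa mice, 39 of them were called higher at an adjusted p under 0.05 (limma on log2(RPKM + 1), Benjamini-Hochberg adjustment over the 12671 genes) and 0 were called lower. Of all genes tested, 4.73% were called higher and 9.78% lower in this comparison. The median log2 fold change was 0.31 over the members and -0.04 over all genes, and the members ranged from 0.16 (Ccne2) to 0.47 (Plk1). In 45 members every B-sa mouse was above every Con-sa mouse, against 11.2% of all genes. The S-phase genes had 22 of 28 called higher and the mitotic genes 17 of 27. In whole spleen RNA, fewer cells of a type and less RNA per cell cannot be told apart, so these levels do not separate more dividing cells from more transcript in each.

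**Figure D1:**
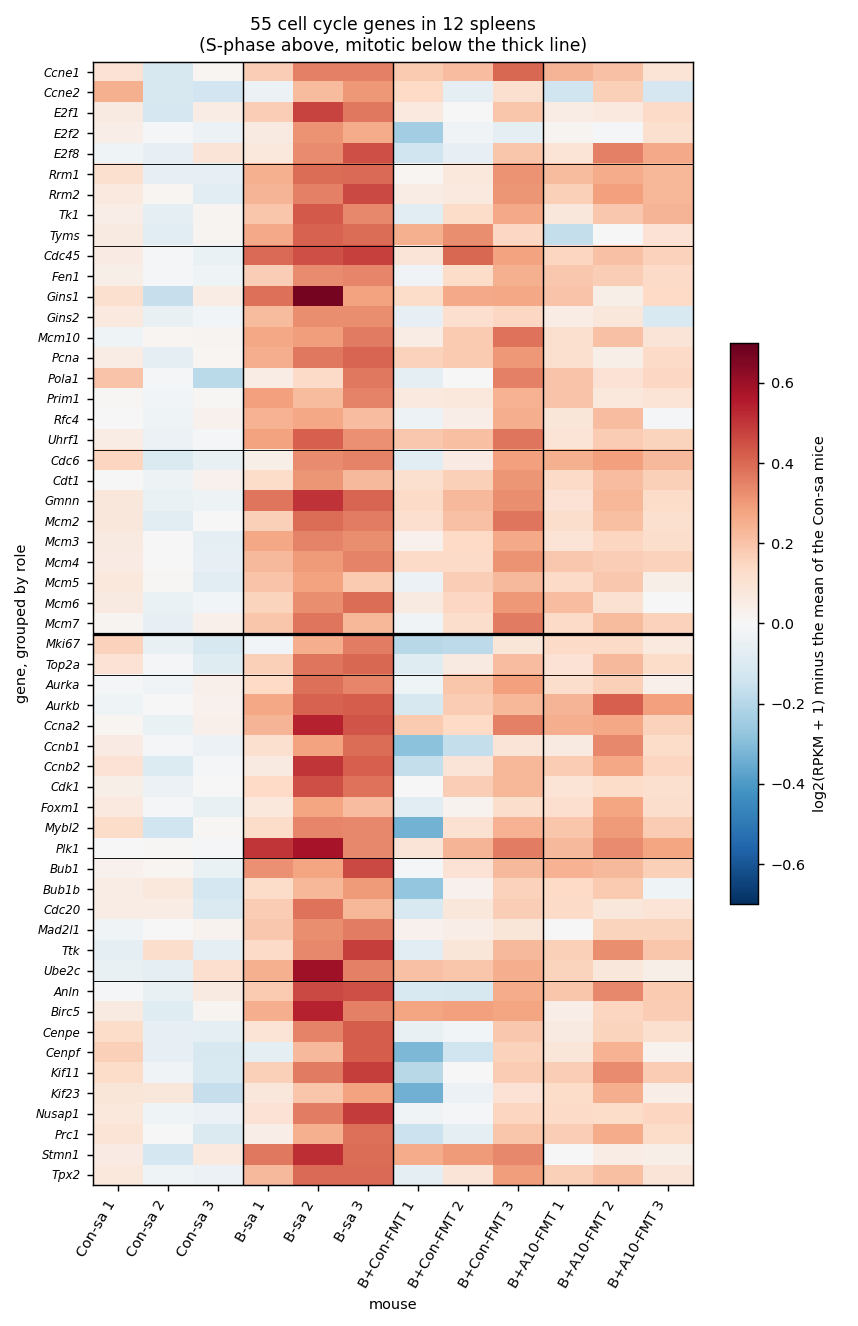
Log2(RPKM + 1) of the 55 genes (rows, grouped by role, S-phase above and mitotic below the thick line) in the 12 mice (columns) after subtraction of the gene's mean over the 3 Con-sa mice. Red marks levels above and blue levels below the Con-sa mean. The B-sa columns are red in nearly all rows, and B-sa mouse 1 is paler than B-sa mice 2 and 3, being the lowest of its group for 49 of the 55 genes.

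Among the regulators that start S phase, 2 of 5 were called higher, and most origin licensing factors were. Ccne1 and the transcription factor gene E2f1 were called higher in B-sa mice than in Con-sa mice, and E2f2, E2f8 and Ccne2 were not. Ccne1, the cyclin that activates CDK2 at the start of S phase, was at an RPKM of 45.6, 39.2 and 42.8 in Con-sa, 47.97, 54.6 and 54.5 in B-sa, 48.4, 49.6 and 56.3 in B+Con-FMT and 50.2, 49.01 and 45.5 in B+A10-FMT. The B-sa values were above the Con-sa values without overlap, and the log2 fold change of B-sa against Con-sa was 0.29 ± 0.08 (SE; limma adjusted p = 0.0255). Of the 9 licensing genes, 7 were called higher, with Mcm5 and Cdc6 as the exceptions. Gmnn, which encodes geminin, the inhibitor of the loading factor CDT1, showed the clearest difference of this role with RPKM of 46.1, 42.1 and 42.5 in Con-sa, 56.8, 62.3 and 58.1 in B-sa, 47.9, 51.1 and 54.8 in B+Con-FMT and 46.8, 51.2 and 47.7 in B+A10-FMT. All B-sa mice were above the mice of the 3 other groups, and the log2 fold change against Con-sa was 0.43 ± 0.06 (SE; limma adjusted p = 0.00358). Mcm7 was the licensing gene of highest level, at 106, 101 and 108 in Con-sa, 120.0, 136 and 124 in B-sa, 103, 114 and 135 in B+Con-FMT and 115, 122 and 118 in B+A10-FMT RPKM, and the log2 fold change of B-sa against Con-sa was 0.27 ± 0.08 (SE; limma adjusted p = 0.0475). Cdc6, an ATPase that loads the helicase, was at 42.5, 35.5 and 36.8 in Con-sa, 39.2, 48.3 and 48.9 in B-sa, 36.2, 39.8 and 46.8 in B+Con-FMT and 45.5, 46.7 and 44.8 in B+A10-FMT, and it was the 1 member whose mean was not highest in B-sa mice, since the B+A10-FMT mean was slightly above it. Cdc6 was picked after its values were seen.

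Of the 10 genes that act at firing origins and at the fork, 9 were called higher in B-sa mice than in Con-sa mice, and Pola1 was not. Of the 9, Fen1, a nuclease that trims Okazaki fragments, was at 0.28 on the log2 scale with its transcripts summed and at -0.31 with 1 transcript per gene. Pcna, the sliding clamp and the most abundant of the 55 transcripts, was at 399.7, 369 and 389 in Con-sa, 460.4, 498 and 512 in B-sa, 431, 438 and 476 in B+Con-FMT and 417, 397 and 423 in B+A10-FMT RPKM. The lowest B-sa mouse was above the highest Con-sa mouse, and the log2 fold change was 0.34 ± 0.06 (SE; limma adjusted p = 0.00533). Cdc45, a part of the active helicase, was at 19.3, 18.4 and 17.9 in Con-sa, 24.7, 25.6 and 26.2 in B-sa, 19.8, 24.8 and 22.8 in B+Con-FMT and 20.7, 21.5 and 20.8 in B+A10-FMT RPKM. B-sa and Con-sa did not overlap, and B+Con-FMT mouse 2 reached the level of the B-sa mice while the other B+Con-FMT mice did not. Its log2 fold change in B-sa against Con-sa was 0.44 ± 0.07 (SE; limma adjusted p = 0.00486). Gins1, another part of that helicase, had the larger spread, with 23.3, 19.1 and 22.3 in Con-sa and 28.4, 34.9 and 26.4 in B-sa RPKM and a change on the log2 scale of 0.45 ± 0.10 (SE; limma adjusted p = 0.0126), and B-sa mouse 2 was its highest value. All 4 genes of nucleotide supply were called higher (Rrm1, Rrm2, Tyms and Tk1), with log2 fold changes from 0.32 to 0.36. Rrm2, the regulated subunit of ribonucleotide reductase, was at 133, 128 and 119 in Con-sa, 149, 162 and 175 in B-sa, 131, 132 and 157 in B+Con-FMT and 142, 154 and 149 in B+A10-FMT RPKM, highest in the B-sa mice 2 and 3, and its log2 fold change against Con-sa was 0.35 ± 0.08 (SE; limma adjusted p = 0.0129).

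The mitotic genes included the largest and some of the smallest changes. Plk1, the Polo kinase that acts in spindle assembly and mitotic exit, was at 31.6, 31.8 and 31.4 in Con-sa, 45.1, 47.6 and 40.2 in B-sa, 33.7, 37.5 and 40.8 in B+Con-FMT and 37.1, 39.97 and 38.5 in B+A10-FMT RPKM. Its 3 Con-sa values lay within less than 1 RPKM of each other and below all 9 values of the busulfan-treated mice. The log2 fold change of B-sa against Con-sa was 0.47 ± 0.07 (SE; limma adjusted p = 0.00458). Of the 9 mitotic kinases, cyclins and factors, Ccna2, Cdk1, Plk1, Aurka and Aurkb were called higher, and Ccnb1, Ccnb2, Foxm1 and Mybl2 were not. Of the 6 genes of the spindle checkpoint and the anaphase-promoting complex, Bub1, Mad2l1, Cdc20 and Ube2c were called higher. Ube2c, the ubiquitin-conjugating enzyme of that complex, was the mitotic gene of highest level with 320.4, 318 and 362 in Con-sa, 395, 502 and 425 in B-sa, 383, 381 and 397 in B+Con-FMT and 371, 351 and 342 in B+A10-FMT RPKM and a log2 fold change of 0.40 ± 0.08 (SE; limma adjusted p = 0.00939). B-sa mouse 2 was its highest value, and no B-sa mouse fell within the Con-sa range.

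Of the 10 genes of the spindle, kinetochore and cytokinesis, 7 were called higher in B-sa mice than in Con-sa mice, and Kif23, Cenpf and Prc1 were not. Stmn1, which encodes the tubulin-binding protein stathmin, was at 188, 166 and 189 in Con-sa, 234, 259 and 237 in B-sa, 216, 223 and 228 in B+Con-FMT and 180.4, 188 and 186 in B+A10-FMT RPKM. The B-sa mice were above every other mouse, the B+Con-FMT mice came next, and the B+A10-FMT mice lay within the Con-sa range. The log2 fold change of B-sa against Con-sa was 0.43 ± 0.06 (SE; limma adjusted p = 0.00296). Birc5, which encodes survivin of the chromosomal passenger complex, was at 152, 137 and 148 in Con-sa, 174, 211 and 186 in B-sa, 176, 178 and 177 in B+Con-FMT and 149.9, 162 and 165 in B+A10-FMT RPKM with a log2 fold change of 0.38 ± 0.07 (SE; limma adjusted p = 0.00701). Mki67, the proliferation marker Ki-67 whose protein the study also stained, was not called in any of the 6 comparisons. It was at 174, 149 and 143 in Con-sa, 153, 185 and 199 in B-sa, 135, 136 and 164 in B+Con-FMT and 170.0, 170.0 and 163 in B+A10-FMT RPKM, and B-sa mouse 1 lay within the Con-sa range. The log2 fold change of B-sa against Con-sa was 0.20 ± 0.10 (SE; limma adjusted p = 0.207), with a 95% confidence interval from -0.02 to 0.42. For the protein, the paper reports fewer Ki67-positive cells after busulfan and their recovery with A10-FMT. The mean of the transcript moved in the opposite direction after busulfan, from 155.5 RPKM (Con-sa) to 178.9 RPKM (B-sa), and was not called. How the staining relates to the transcript was not tested. Top2a, which encodes the topoisomerase that untangles sister chromatids and was grouped with Mki67 by role, was called higher at 0.31 ± 0.08 (SE; limma adjusted p = 0.0272), and was picked after its values were seen.

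**Figure D2:**
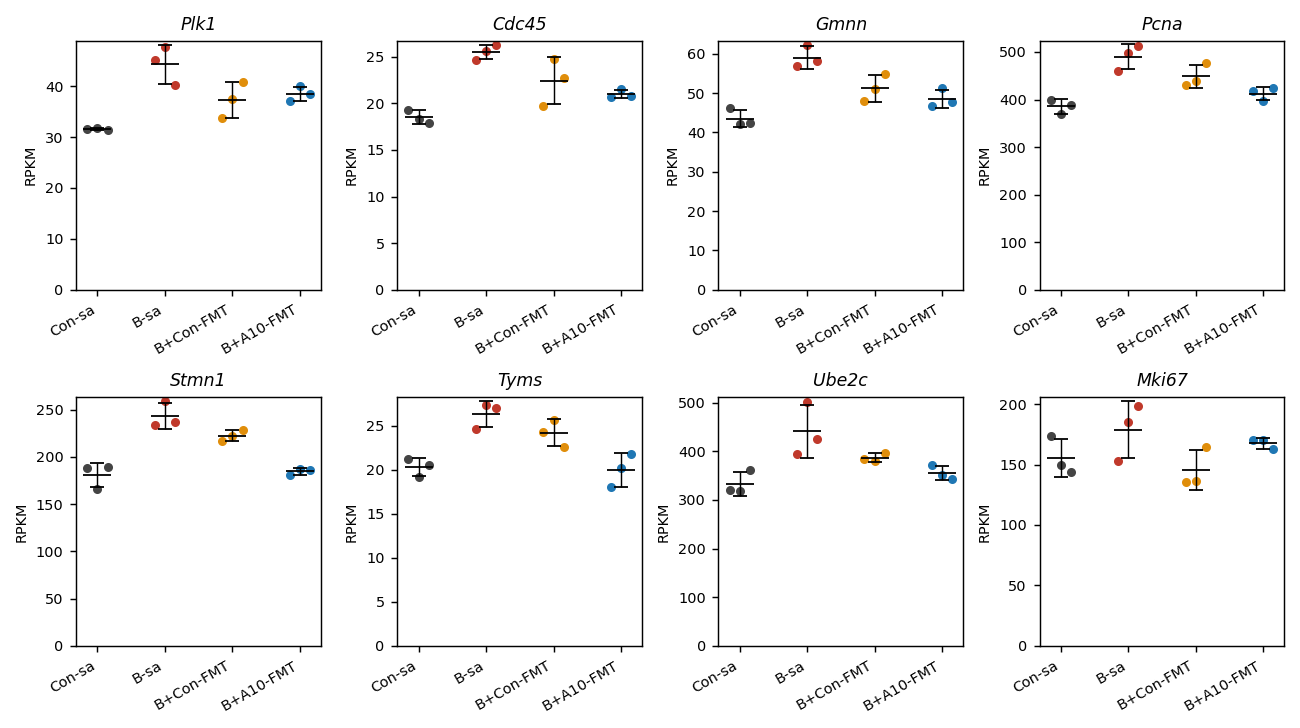
RPKM of 8 genes in each mouse (points) by group, with the group mean and SD of 3 mice (bar and whiskers) and each vertical axis starting at 0. For Plk1, Cdc45, Gmnn, Pcna, Stmn1, Tyms and Ube2c the B-sa points lie above the Con-sa points without overlap, and for Mki67 the groups overlap.

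The count of 39 depended on single mice, while the direction did not. Without B-sa mouse 2, 14 members were called, without Con-sa mouse 2 it was 18, without B-sa mouse 3 it was 21 and without Con-sa mouse 3 it was 22, and all 55 members stayed above 0 each time. Of all genes, 599 were called higher with every mouse kept, and 166, 215, 448 and 330 in these fits, in the same order. The 10 genes Birc5, Ccna2, Gmnn, Mcm3, Mcm4, Pcna, Plk1, Prim1, Stmn1 and Ube2c were called under each of the 16 alternatives tried. Taking 1 transcript per gene instead of their sum lowered the count to 21 and left 53 members above 0.

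FMT of either kind went with lower levels than busulfan alone, and few single genes passed the test. In B+Con-FMT mice all 55 members had a lower mean than in the B-sa mice, with a median log2 fold change of -0.21 against -0.0041 for all genes, and 0 members were called with limma, while 36 were lower at an unadjusted p under 0.05. Of all genes, 0.221% were called lower and 9.08% were lower at the unadjusted p. In 11 members every B+Con-FMT mouse was below every B-sa mouse, against 9.05% of all genes. The largest differences were those of Ccnb1 at -0.38, Anln at -0.35 and Kif11 at -0.34, with adjusted p from limma of 0.0867, 0.111 and 0.116, and these genes were picked after their values were seen. Ccnb1, the cyclin that activates CDK1 at mitotic entry, was at 47.9, 45.7 and 44.8 in Con-sa, 49.9, 56.3 and 60.7 in B-sa, 37.6, 40.9 and 49.2 in B+Con-FMT and 48.1, 58.4 and 50.5 in B+A10-FMT RPKM, with B+Con-FMT mice 1 and 2 below all other mice. The spread within the group was wide, since B+Con-FMT mouse 1 was the lowest of its group for 48 of the 55 genes and mouse 3 the highest for 50. Without B-sa mouse 1, 11 members were called lower, and without B+Con-FMT mouse 3, 2 were (Anln and Ccnb1). Of all genes, 28 were called lower with every mouse kept, 226 without B-sa mouse 1 and 45 without B+Con-FMT mouse 3.

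In B+A10-FMT mice, 54 of the 55 members had a lower mean than in the B-sa mice, and 7 were called lower and 0 higher by limma, where 1.27% of all genes were called lower and 4.0% higher. The 7 were Stmn1, Tyms, Ube2c, Gins2, Gmnn, Cdc45 and Pcna. The median log2 fold change was -0.16 over the members and 0.05 over all genes, and 22 members had every B+A10-FMT mouse below every B-sa mouse, against 7.38% of all genes. Stmn1 fell most in the levels given above, with a log2 fold change of -0.39 ± 0.06 (SE; limma adjusted p = 0.00609). Tyms, which encodes thymidylate synthase, was at 21.2, 19.2 and 20.6 in Con-sa, 24.6, 27.3 and 26.96 in B-sa, 24.3, 25.7 and 22.6 in B+Con-FMT and 17.99, 20.2 and 21.8 in B+A10-FMT RPKM, so that B+A10-FMT was the lowest group beside Con-sa and did not overlap with B-sa or with B+Con-FMT. Its log2 fold change of B+A10-FMT against B-sa was -0.38 ± 0.07 (SE; limma adjusted p = 0.017). Gins2, a further subunit of the GINS complex, was at 17.2, 15.8 and 16.2 in Con-sa, 19.3, 20.8 and 20.8 in B-sa, 15.7, 17.9 and 18.3 in B+Con-FMT and 17.1, 17.4 and 15.2 in B+A10-FMT RPKM. The B-sa mice were above the mice of the 3 other groups, and the change of B+A10-FMT against B-sa was -0.28 ± 0.07 (SE; limma adjusted p = 0.0388). Ube2c changed by -0.31 ± 0.08 (SE; limma adjusted p = 0.0433) and Gmnn by -0.28 ± 0.06 (SE; limma adjusted p = 0.029). The count moved with single mice, with 1 member (Stmn1) called without B-sa mouse 2, without B+A10-FMT mouse 1 or without B+A10-FMT mouse 2, 2 without B+A10-FMT mouse 3, 4 without B-sa mouse 3 and 13 without B-sa mouse 1. Of all genes, 161 were called lower with every mouse kept, and 24, 48, 21, 74, 156 and 224 in these fits, in the same order. Both FMT comparisons use the same B-sa mice, and B-sa mouse 1 was the nearest of these to the other groups.

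**Figure D3:**
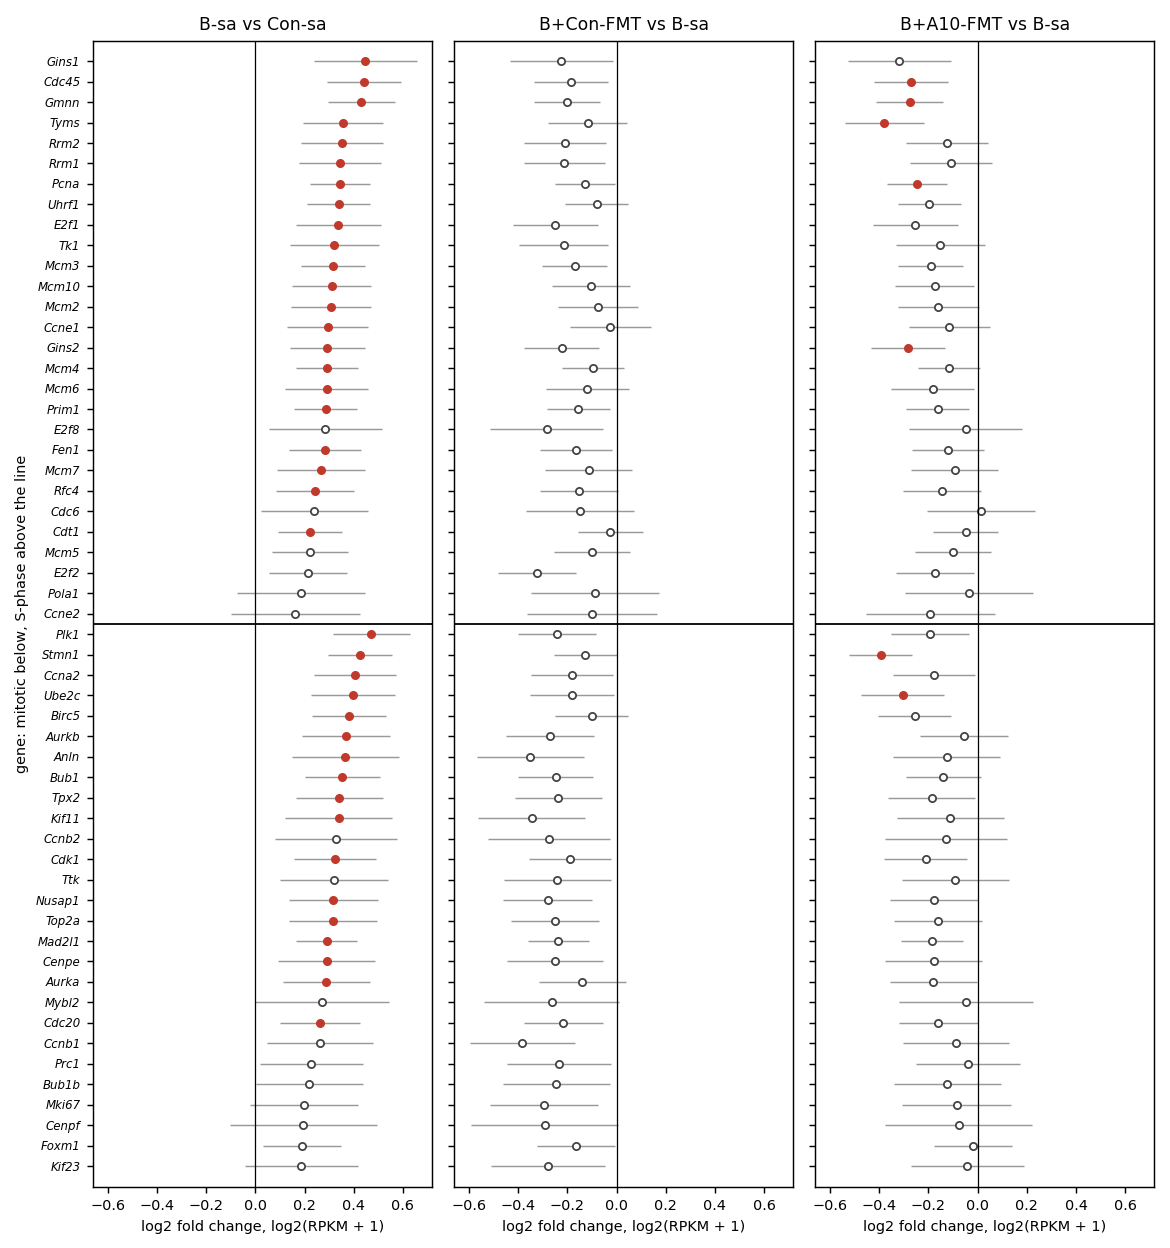
Log2 fold changes on log2(RPKM + 1) with 95% confidence intervals (lines) for each gene in 3 comparisons, S-phase genes above and mitotic genes below the horizontal line. Filled red points were called at an adjusted p under 0.05 in limma and open points were not. The 55 points lie right of 0 in B-sa vs Con-sa, left of 0 in B+Con-FMT vs B-sa, and left of 0 for 54 of 55 in B+A10-FMT vs B-sa.

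Between the FMT groups the members had no common direction. In B+A10-FMT against B+Con-FMT mice, 33 members had a higher and 22 a lower mean, and 2 were called lower, Stmn1 at -0.27 ± 0.06 (SE; limma adjusted p = 0.0182) and Tyms at -0.26 ± 0.07 (SE; limma adjusted p = 0.0427), where 2.78% of all genes were called lower and 7.58% higher. With the trend on length and GC content removed, Stmn1 was at -0.16 (limma adjusted p = 0.0781) and no longer called. The balance of the members moved with the scaling, with 26 higher and 29 lower under a median-of-ratios scaling and 40 higher and 15 lower with equal totals outside the globin genes. The median log2 fold change was -0.02 over the S-phase genes and 0.11 over the mitotic genes, against 0.05 over all genes. Without B+Con-FMT mouse 1 the split was 23 higher and 32 lower, and without B+Con-FMT mouse 3 it was 42 and 13. Leaving out 1 mouse at a time, the mean change over the S-phase genes ran from -0.06 to 0.05 and that over the mitotic genes from 0.03 to 0.17. Without B+Con-FMT mouse 1, B+Con-FMT mouse 2 or B+A10-FMT mouse 2, 0 members were called, without B+A10-FMT mouse 1 it was 1 (Stmn1), and without B+Con-FMT mouse 3 it was 4, with Anln and Ccnb1 higher and Stmn1 and Tyms lower. Of all genes, 352 were called lower with every mouse kept, and 93, 145, 63, 226 and 254 in these fits, in the same order. Those called higher went from 960 to 212, 345, 159, 743 and 905.

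The S-phase and the mitotic genes lay at a similar distance in 3 of the groups and at a larger one in B+Con-FMT mice. The mean of log2(RPKM + 1) over the 28 S-phase genes was 5.52, 5.40 and 5.43 in Con-sa, 5.66, 5.81 and 5.80 in B-sa, 5.50, 5.58 and 5.72 in B+Con-FMT, and 5.57, 5.62 and 5.57 in B+A10-FMT mice. Over the 27 mitotic genes it was 5.36, 5.29 and 5.28 in Con-sa, 5.47, 5.69 and 5.69 in B-sa, 5.24, 5.37 and 5.52 in B+Con-FMT, and 5.45, 5.53 and 5.44 in B+A10-FMT mice. B-sa and Con-sa did not overlap on either mean, and B+Con-FMT overlapped with both groups on both means. The S-phase mean minus the mitotic mean was 0.16, 0.12 and 0.16 in Con-sa, 0.18, 0.12 and 0.11 in B-sa, 0.26, 0.21 and 0.20 in B+Con-FMT, and 0.13, 0.09 and 0.14 in B+A10-FMT mice. The 3 B+Con-FMT mice were above the other 9 on this difference, which is given as a description. With 1 transcript per gene, B-sa mouse 1 (0.26) lay among the B+Con-FMT mice (0.24 to 0.33).

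**Figure D4:**
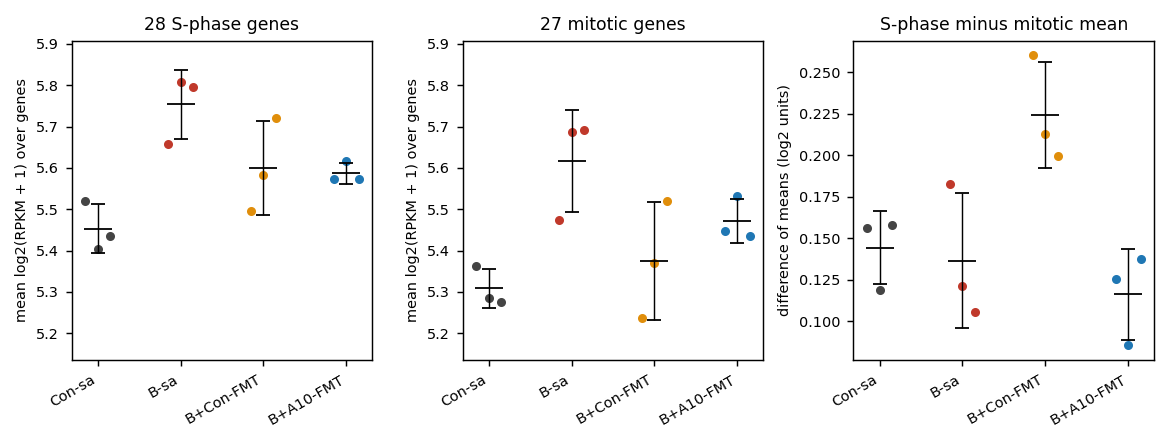
Mean log2(RPKM + 1) over the 28 S-phase genes (left) and the 27 mitotic genes (middle), and the first minus the second (right), for each mouse (points) by group with the group mean and SD of 3 mice. The vertical axes do not start at 0. The B-sa points are above the Con-sa points in the left and middle panels, and the B+Con-FMT points are above all others in the right panel.

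Most members had a higher mean in both FMT groups than in the Con-sa mice, which received saline and no busulfan, with small differences. In B+Con-FMT mice 47 members had a higher mean than in Con-sa mice and 7 were called higher (Stmn1, Birc5, Ccne1, Cdc45, Uhrf1, Gmnn and Pcna), where 2.3% of all genes were called higher. The median log2 fold change was 0.14 over the S-phase genes and 0.05 over the mitotic genes, against -0.04 over all genes. Without B+Con-FMT mouse 3 the split was 36 higher and 19 lower with a median of 0.04 over the members (0.11 with all mice), and the mean change over the mitotic genes was -0.0054 in place of 0.07. With equal totals outside the globin genes it was 40 higher and 15 lower, with a median of 0.06. Stmn1 changed by 0.30 ± 0.06 (SE; limma adjusted p = 0.0125), Birc5 by 0.28 ± 0.07 (SE; limma adjusted p = 0.0286) and Ccne1 by 0.27 ± 0.08 (SE; limma adjusted p = 0.0475). Uhrf1, which guides maintenance DNA methylation at the fork, was at 49.2, 46.1 and 47.1 in Con-sa, 57.9, 63.7 and 59.4 in B-sa, 54.3, 55.01 and 61.8 in B+Con-FMT and 50.7, 53.8 and 52.9 in B+A10-FMT RPKM, and its B+Con-FMT mice did not overlap with the Con-sa mice. Uhrf1 was picked after its values were seen. Of these 7 calls, Stmn1 alone was kept under each of the 16 alternatives, and the number called was 1 without Con-sa mouse 2, without Con-sa mouse 3 or without B+Con-FMT mouse 3, and 2 without Con-sa mouse 1 or without B+Con-FMT mouse 2. Of all genes, 292 were called higher with every mouse kept, and 92, 222, 128, 88 and 169 in these fits, in the same order. In B+A10-FMT mice 53 members had a higher mean than in Con-sa mice, with a median log2 fold change of 0.15 against 0.0050 for all genes. With limma 0 members were called, where 0.118% of all genes were called higher, and 19 members were higher at an unadjusted p under 0.05, against 7.12% of all genes. In 34 members every B+A10-FMT mouse was above every Con-sa mouse, against 11.7% of all genes. The mean over the mice of a group was lowest in Con-sa for 45 members, in B+Con-FMT for 8 and in B+A10-FMT for 2. These comparisons share the Con-sa mice with that of B-sa.

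Further genes of the same processes, listed by role, were mostly higher after busulfan as well. Of 42 other S-phase genes, 21 were called higher in B-sa mice than in Con-sa mice and 0 lower, with a median log2 fold change of 0.23, where 4.73% of all genes were called higher. Their means were higher for 39 and lower for 3 (Orc3, Mcmbp and Pold1). Of 55 other mitotic genes, 33 were called higher and 0 lower, with a median of 0.31. Among the former, Dscc1, a part of a clamp loader, changed by 0.43 ± 0.08 (SE; limma adjusted p = 0.00778), and Orc6, a subunit of the origin recognition complex, by 0.41 ± 0.07 (SE; limma adjusted p = 0.00504). Among the latter, the kinetochore gene Cenph changed by 0.54 ± 0.08 (SE; limma adjusted p = 0.00358) and Spc25, of the NDC80 complex, by 0.53 ± 0.08 (SE; limma adjusted p = 0.00502). In B+A10-FMT against B-sa mice 8 of the other S-phase genes and 5 of the other mitotic genes were called lower, where 1.27% of all genes were, and in B+Con-FMT against B-sa mice 1 and 3 were, where 0.221% of all genes were. Tipin, a fork protection gene, fell in both, by 0.24 and 0.31 on the log2 scale (limma adjusted p = 0.0177 and 0.0128). It was at 54.1, 52.8 and 53.96 in Con-sa, 69.5, 69.2 and 68.4 in B-sa, 53.8, 55.4 and 57.4 in B+Con-FMT and 54.9, 59.00 and 60.6 in B+A10-FMT RPKM, and the B-sa mice were above all others. The kinase gene Melk and Tacc3, a spindle gene, were also called lower in both, and Orc6, Dscc1 and Cks2 were called lower in B+A10-FMT mice.

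Few genes of these lists were called between the FMT groups. In B+A10-FMT against B+Con-FMT mice, 1 of the 42 other S-phase and 1 of the 55 other mitotic genes were called higher, where 7.58% of all genes were. In the same comparison 0 and 1 were called lower, where 2.78% of all genes were. Clspn, which relays the replication checkpoint, and the kinesin gene Kif14 were called higher in B+A10-FMT mice than in B+Con-FMT mice, at 0.30 ± 0.09 (SE; limma adjusted p = 0.0472) and 0.40 ± 0.11 (SE; limma adjusted p = 0.0426). Cks1b, a CDK-binding subunit, was called lower there at -0.21 ± 0.06 (SE; limma adjusted p = 0.0388). It was at 61.7, 57.7 and 63.1 in Con-sa, 78.7, 89.4 and 78.7 in B-sa, 78.1, 77.5 and 80.5 in B+Con-FMT and 69.01, 66.4 and 68.4 in B+A10-FMT RPKM, with B+Con-FMT mice near the B-sa level and B+A10-FMT mice between them and Con-sa. In B+Con-FMT against Con-sa mice 7 of the 42 other S-phase and 3 of the 55 other mitotic genes were called higher, where 2.3% of all genes were. Cks1b, Cenpk, Dut and Orc6 were among them, with log2 fold changes of 0.37, 0.33, 0.36 and 0.26.

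The cyclins and kinases of the G1 phase, which precedes S phase, were read beside the members. Of 9 such genes, 0 were called by limma in B-sa against Con-sa mice, with a median log2 fold change of 0.10, where 4.73% of all genes were called higher and 9.78% lower. Ccnd3, the D-type cyclin of highest level, was called higher in B+Con-FMT mice than in Con-sa mice at 0.26 ± 0.07 (SE; limma adjusted p = 0.0335), and Ccnd1 higher in B+A10-FMT mice than in the B-sa mice at 0.38 ± 0.09 (SE; limma adjusted p = 0.0297). Each was the 1 gene of the 9 called in its comparison, where 2.3% and 4.0% of all genes were called higher. Of 20 genes that restrain the cycle, 19 passed the filter and 5 were called higher and 0 lower in B-sa mice against the Con-sa group, with 11 means higher and 8 lower, where 4.73% of all genes were called higher and 9.78% lower. E2f7, a repressor that is itself made in S phase, changed by 0.31 ± 0.09 (SE; limma adjusted p = 0.0441). Cdkn1a, which encodes the CDK inhibitor p21, was at 7.09, 7.67 and 9.27 in Con-sa, 12.6, 14.7 and 12.2 in B-sa, 17.4, 13.3 and 19.97 in B+Con-FMT and 19.6, 14.6 and 12.04 in B+A10-FMT RPKM, and all 9 busulfan-treated mice were above the 3 Con-sa mice. Its log2 fold change against Con-sa was 0.66 ± 0.17 (SE; limma adjusted p = 0.0322) in B-sa, 0.98 ± 0.17 (SE; limma adjusted p = 0.00992) in B+Con-FMT and 0.85 ± 0.17 (SE; limma adjusted p = 0.0729) in B+A10-FMT mice. The values of the groups are set side by side because the 3 comparisons share the Con-sa mice.

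Markers of several blood cell types moved in the same mice, and their part in the levels of the members was not tested. Of 20 erythroid precursor markers, 9 were called higher in B-sa mice than in Con-sa mice and 0 lower, with a median log2 fold change of 0.33, where 4.73% of all genes were called higher and 9.78% lower. Their summed RPKM was between 3927 and 4448 in Con-sa, between 4431 and 5716 in B-sa, between 4501 and 4926 in B+Con-FMT and between 4410 and 4944 in B+A10-FMT mice. Of 11 granulocyte precursor markers, 5 were called higher and all 11 had every B-sa mouse above every Con-sa mouse (11.2% of all genes did), with a median of 1.13. Their sum was between 2148 and 2237 in Con-sa, between 3837 and 6291 in B-sa, between 2483 and 3591 in B+Con-FMT and between 2127 and 5306 in B+A10-FMT mice. Of 7 megakaryocyte markers, 1 was called higher. Of 9 B cell markers, 7 were called lower in B-sa mice than in Con-sa mice. No marker of these lists was at 0 in all mice. The summed RPKM of the 55 members was between 3184 and 3418 in Con-sa, between 3805 and 4372 in B-sa, between 3424 and 3949 in B+Con-FMT and between 3583 and 3689 in B+A10-FMT mice.

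Further marker lists also differed between groups. Of 6 germinal center B cell markers, 5 were called lower in B+A10-FMT mice than in B+Con-FMT mice (2.78% of all genes were), and their sum was 74.96 to 102.9 RPKM in B+Con-FMT against between 49.26 and 55.06 in B+A10-FMT mice. Of 8 T cell markers, 3 were called higher in B+Con-FMT mice than in Con-sa mice (2.3% of all genes were), with sums of 353.7 to 439.4 against 283.4 to 331.5. Of 10 markers of the pancreatic acinar cells, which belong to a neighboring organ, the sum was between 1274 and 6977 in Con-sa, between 455.8 and 3228 in B-sa, between 7848 and 12680 in B+Con-FMT and between 428.3 and 9111 in B+A10-FMT mice. Of the 8 spleen identity markers, which include red pulp macrophage genes, 4 were called higher in B+A10-FMT mice than in the B-sa mice (Spic, Tlx1, Slc40a1 and Treml4) and 5 higher than in B+Con-FMT mice (these and Vcam1), where 4.0% and 7.58% of all genes were called higher, while Cd79a and Tlx1 were called lower in B-sa mice against the Con-sa group. The sum of the 8 was between 1022 and 1086 RPKM in Con-sa, between 884.5 and 939.2 in B-sa, between 910.5 and 978.6 in B+Con-FMT and between 1036 and 1102 in B+A10-FMT mice, without overlap between the B+A10-FMT mice and either of the other busulfan-treated groups. Cd79a, also in the B cell list, made up most of this sum, with means of 709.4, 569.5, 618.9 and 601.9 in the same order. The mean of log2(RPKM + 1) over the 8 was 5.79, 5.70, 5.68 and 6.03, and on it every B+A10-FMT mouse was above every Con-sa mouse. Against Con-sa mice, 2 of the 8 were called higher in B+A10-FMT mice, where 0.118% of all genes were. The list was not uniform, since Madcam1 moved downward between the FMT groups without being called. Its RPKM was 21.75, 16.99 and 16.86 in B+Con-FMT mice and 12.47, 12.71 and 14.23 in B+A10-FMT mice, without overlap. In B-sa mice Madcam1 was at 20.72, 13.66 and 14.72. Of 6 kidney markers, 2 passed the filter (Kap and Slc34a1), and both were called lower in B-sa mice against the Con-sa group, as were 9.78% of all genes. The sum of the 6 was between 75.57 and 117.4 RPKM in Con-sa, between 7.78 and 15.13 in B-sa, between 17.37 and 62.17 in B+Con-FMT and between 0.83 and 3.33 in B+A10-FMT mice. Kap made up most of this sum, at 72.66 to 112.29 RPKM in Con-sa mice. Umod, Lrp2, Slc12a1 and Aqp2 did not exceed 1 RPKM in any mouse. The part of these markers in the levels of the members was not tested.

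Fold changes also moved with transcript length. Across the members, the Spearman correlation of the log2 fold change of B-sa against Con-sa with the length of the longest GENCODE M21 transcript was -0.37 (n = 55 genes that share the same mice), against -0.26 over 12478 genes, given as a description. Members shorter than the median of 3421 bases had a median log2 fold change of 0.32 and longer ones of 0.29. With the trend on length and GC content removed, an alternative chosen after the data were seen, all 55 members stayed above 0 and 42 were called, where 38 of these were among the 39.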

How the data were processed

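Poly(A) RNA, enriched from total RNA of mouse spleen with oligo(dT) beads, was sequenced in 12 libraries. Per the paper's methods, the authors aligned reads with SOAPaligner and turned gene reads into RPKM. The deposited tables hold 1 value per RefSeq transcript and library, which was taken as RPKM from these methods. The submitters' processing notes name HISAT, Bowtie2 and the build mm10, so the aligner behind the values is not settled, and the file headers do not name the unit. The authors' own test was DEGseq, which was not repeated.

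The RPKM of 60654 transcripts were summed to 18221 genes, and 18101 identifiers were matched to symbols in a RefSeq gene table. The 12671 genes that reached an RPKM of 1 in 3 or more mice entered a fit of log2(RPKM + 1), with a pseudocount of 1, by limma 3.58.1 in R 4.3.3 with trend and robust settings, and all 12 mice were fitted together with group as the only factor. Fold changes on this scale understate the change of low genes. P-values are two-sided, adjusted by Benjamini-Hochberg over these genes, with 0.05 as the threshold of a call. The 6 comparisons share groups. Reads per library were estimated from the steps of low RPKM, and no counting interval was given, so precision rests on the spread of 3 mice. Groups were taken from the agent label. Replicate numbers are those in the sample titles, and the labels do not tie equal numbers to a shared litter, batch or day. The alternatives were another pseudocount, other filters, a replicate block, fits on 2 groups, 2 scalings, 1 transcript per gene, limma without its trend and robust settings, removal of a length and GC trend, and leaving out each mouse.

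Values are given for Mki67, the 3 S-phase and 3 mitotic members of highest mean RPKM, up to 4 members called in each direction per comparison by size of change, up to 2 genes of each further list called in each direction per comparison, Cdkn1a, and genes said to be picked after their values were seen. Other genes are named as members of a count or where an alternative changed their direction or call. The members, the gene lists and this rule were chosen with earlier results of these data known. Reads of near-identical gene copies may have been split by the authors' mapping. Promoter bases came from RefSeq (GRCm38.p6).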

Additional observations from a re-analysis of the deposited data

How the results depend on the processing

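Of the 55 members, the number called in B-sa against Con-sa mice (39) was 21 with the transcript of highest mean RPKM in place of the sum, and lay between 32 and 42 under the other settings that kept all mice. For B+Con-FMT against B-sa it was 2 with equal totals outside the globin genes (E2f2 and Mad2l1), in place of 0. For B+A10-FMT against B-sa (7) it was 4 without a filter on low values, 1 in a fit on the 2 groups only, 12 with median-of-ratios scaling and 2 with 1 transcript per gene. For B+A10-FMT against B+Con-FMT (2) it was 1 without a filter, in the fit on 2 groups, with 1 transcript per gene and without the trend and robust settings (Stmn1 in each), 1 after removal of the length and GC trend (Tyms), and 3 with equal totals outside the globin genes (Aurkb and Ccnb1 higher, Stmn1 lower). For B+Con-FMT against Con-sa (7) it was 4 without a filter, 4 in the fit on 2 groups, 13 with median-of-ratios scaling, 3 with equal totals outside the globin genes, 1 with 1 transcript per gene and 3 without the trend and robust settings. Removal of the length and GC trend gave 10 called members in B+Con-FMT against Con-sa and 7 in B+A10-FMT against B-sa, and in each comparison 4 of the 7 reported calls were among them. The causes of these shifts were not tested, beyond the larger number of genes tested without a filter and the smaller number of mice in the fit on 2 groups. The replicate block gave 36, 0, 4, 1, 4 and 0 called members in the 6 comparisons, in the order B-sa against Con-sa, each FMT group against B-sa with B+Con-FMT first, B+A10-FMT against B+Con-FMT, and each FMT group against Con-sa with B+Con-FMT first. The correlation of the deviations of same-numbered mice ran from -0.373 to 0.303. With 3 mice per group such values cannot show whether equal numbers share a litter, batch or day. Pairing is therefore unknown, and the block is given for completeness. Leaving out 1 mouse gave 14 to 47, 0 to 11, 1 to 13, 0 to 4, 1 to 5 and 0 to 0 called members in the same order. Where this left 2 mice in a group, the spread was pooled over all groups.

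Fen1 turned from higher to -0.31 in B-sa against Con-sa with 1 transcript per gene. Mki67, called nowhere, turned to -0.0047 in B+A10-FMT against B+Con-FMT with 1 transcript per gene, and in B+Con-FMT against Con-sa to 0.13 with that choice and to 0.041 after removal of the length and GC trend. Cdkn1a in B+A10-FMT against B+Con-FMT turned to 0.019 without B+A10-FMT mouse 3. Scaling moved the split of all called genes, from 599 higher and 1239 lower to 965 and 772 with median-of-ratios scaling in B-sa against Con-sa, from 507 and 161 to 282 and 349 in B+A10-FMT against B-sa, from 960 and 352 to 561 and 696 in B+A10-FMT against B+Con-FMT, and from 292 and 832 to 578 and 528 in B+Con-FMT against Con-sa. Equal totals outside the globin genes moved it to 67 and 113 from 79 and 28 in B+Con-FMT against B-sa, to 2099 and 239 in B+A10-FMT against B+Con-FMT and to 199 and 1638 in B+Con-FMT against Con-sa, so that the 2 scalings moved the last 2 comparisons in opposite directions. Under these scalings all 55 members kept their direction in B-sa against Con-sa and in B+Con-FMT against B-sa. No read counts were used, and the precision of each value rests on 3 mice per group.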
